A study of Mus musculus with 46 samples.

Results

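mRNA levels of mammary tumors from the C3(1)/Tag and MMTV-c-Myc mouse models were compared. All arrays titled with these models were taken, that is 5 C3(1)/Tag and 4 MMTV-c-Myc tumors, or 9 of the 46 arrays of the series. C3(1)/Tag mice express the SV40 large T and small t antigens from the flanking region of the rat prostatic steroid binding protein gene C3(1), which is active in mammary ductal cells. MMTV-c-Myc mice express c-Myc from the long terminal repeat of mouse mammary tumor virus, which can also be active in salivary gland and lymphoid cells. Both groups were primary tumors of female FVB mice, each tumor from a different mouse, and age at collection is not given in the sources used here. RNA from snap-frozen tumor pieces was hybridized to Affymetrix mouse genome arrays, so each value is an average over all cells of a piece, and fewer cells of a type cannot be told apart from less RNA per cell. The study classes C3(1)/Tag tumors as basal-type and MMTV-c-Myc tumors as luminal-type. The other FVB models of the series (MMTV-H-Ras, MMTV-Her2/neu, MMTV-PymT and MMTV-Wnt1) and normal mammary gland of pregnant FVB mice are given where they place a level, with no test.

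The large T antigen binds the retinoblastoma family of proteins and releases E2F transcription factors, which activate genes of DNA replication, and it also binds and blocks p53. c-Myc forms a dimer with Max that binds the E-box sequence, and it raises genes of ribosome production, nucleotide synthesis and growth. Both oncogenes therefore drive cells into division, but they enter the cell cycle machinery at different points.

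All levels are log2 GC-RMA values, a difference is the C3(1)/Tag mean minus the MMTV-c-Myc mean on this scale, and a gene was called at a Benjamini-Hochberg adjusted p under 0.05 in limma. Values near 2 lie at the bottom of the scale, so a fold change against them depends on where the scale ends. Of 8102 genes tested, 1088 (13.4%) were called at least 2-fold higher in C3(1)/Tag and 543 (6.70%) at least 2-fold lower. Without the fold requirement, which was not applied to members of gene lists, the calls were 1276 (15.7%) and 652 (8.05%). The median difference of all genes was 0.25, array medians ran from 6.80 to 7.43, and MMTV-c-Myc 2 and MMTV-c-Myc 4 had the lowest. With arrays centred on their medians the 2-fold calls became 692 higher and 885 lower, and with quantile normalization 713 and 922, so the split between higher and lower genes depended on the scaling. The median SD of a gene was 0.39 among C3(1)/Tag and 0.62 among MMTV-c-Myc tumors. The mean correlation across genes, which are not independent replicates, was 0.923 within C3(1)/Tag, 0.843 within MMTV-c-Myc and 0.790 between the groups.

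Epithelial markers were high in both groups. Krt8, a keratin of luminal epithelium, was 13.36 ± 0.24 (SD, n = 5) in C3(1)/Tag and 13.64 ± 0.73 (SD, n = 4) in MMTV-c-Myc tumors, and its partner Krt18 was 13.74 ± 0.39 and 13.50 ± 0.93. Neither difference was called (adjusted p = 0.562 and 0.703), and that of Krt18 changed sign with arrays centred on their medians. Cdh1, which encodes E-cadherin, was 12.58 ± 0.27 and 11.85 ± 0.39 (adjusted p = 0.0631). Epcam, described further below, was 14.30 ± 0.31 and 12.53 ± 0.44. It was called higher in C3(1)/Tag without overlap (1.77, adjusted p = 0.00337), so not all epithelial markers were alike between the groups.

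The altered gene of the MMTV-c-Myc model followed its labels. Myc stood at 9.12, 8.40, 9.33, 9.07 and 9.52 in C3(1)/Tag 1 to 5 and at 13.10, 13.57, 13.41 and 13.86 in MMTV-c-Myc 1 to 4. No values overlapped, and the difference of -4.39 (SE 0.28, adjusted p = 9.87e-05) is a 21.0-fold lower level in C3(1)/Tag. Normal gland had 9.09, the C3(1)/Tag mean was 9.09, and the other FVB models lay between 8.99 and 10.46. The SV40 T antigen was not analysed here.

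Genes of DNA replication known as E2F targets were higher in C3(1)/Tag as a group. Of 40 tested members (45 listed), 31 were called higher and 0 lower, against 15.7% of all genes called higher. For 31 members the values of the groups did not overlap, which was the case in this direction for 14.9% of all genes. At an unadjusted p under 0.05, 37 members were higher and 0 lower. Their median difference was 2.09, or 1.84 above that of all genes. The mean level of the list was 10.61 to 10.90 in the 5 C3(1)/Tag tumors. It was 7.66 and 7.86 in MMTV-c-Myc 1 and 2 and 9.41 and 9.42 in MMTV-c-Myc 3 and 4. C3(1)/Tag tumors were thus close to each other and above each MMTV-c-Myc tumor, and the MMTV-c-Myc tumors were unlike among themselves. Group means of the other FVB models lay between 7.55 (MMTV-H-Ras) and 8.51 (MMTV-Wnt1), and normal gland averaged 6.28.

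**Figure D1:**
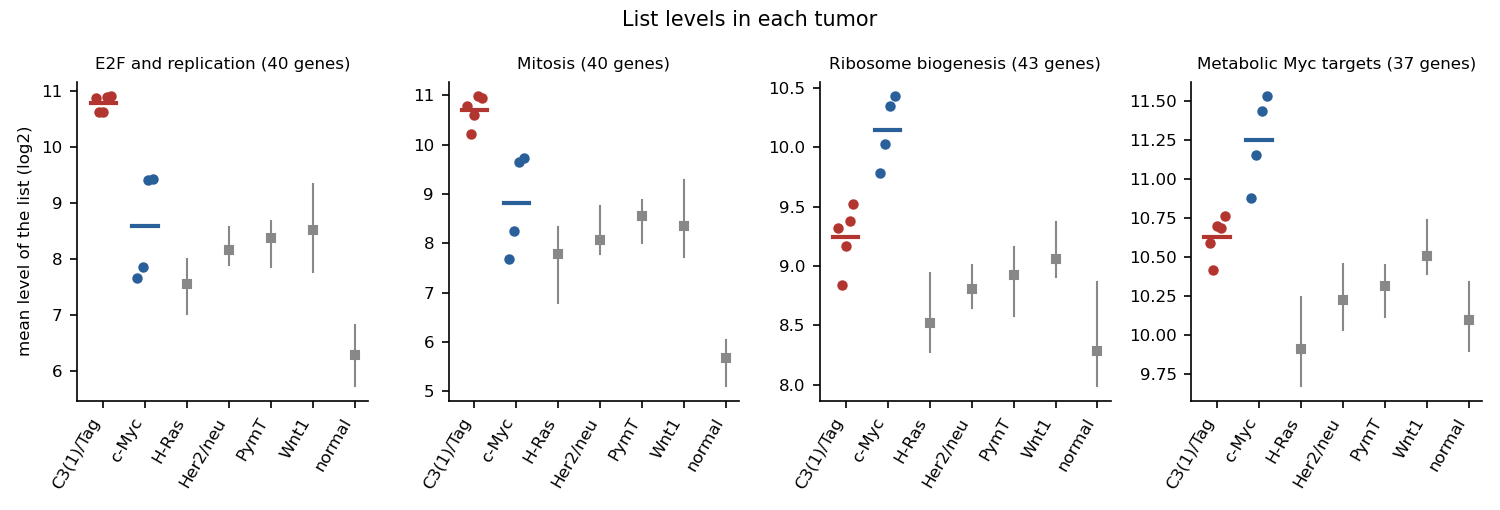
Mean log2 level of the tested members of 4 gene lists (y axis) in C3(1)/Tag (red) and MMTV-c-Myc (blue) tumors, with 1 point per array and the group mean as a bar. Grey squares and lines give the mean and the range over arrays of the other FVB models and of normal gland. In the E2F and replication list the C3(1)/Tag tumors lie between 10.61 and 10.90, above the highest MMTV-c-Myc tumor (9.42), while in the ribosome biogenesis list they lie below every MMTV-c-Myc tumor.

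The largest difference of the list was that of Cdc45, which encodes a part of the replicative helicase. It measured 9.41, 9.81, 9.53, 9.97 and 10.05 in C3(1)/Tag and 4.07, 3.07, 7.16 and 5.52 in MMTV-c-Myc tumors (difference 4.80, SE 0.70, adjusted p = 0.00286). Orc1, a subunit of the origin recognition complex, was 7.41, 7.32, 7.20, 7.78 and 6.74 in C3(1)/Tag and 2.21, 2.30, 4.13 and 4.59 in MMTV-c-Myc (3.98, SE 0.52, adjusted p = 0.00191). Both genes were well separated between the groups, and in MMTV-c-Myc tumors they spread over more than the range seen in C3(1)/Tag. Pole, the catalytic subunit of DNA polymerase epsilon, was higher by 3.85 (SE 0.78, adjusted p = 0.00897). The polymerase alpha gene Pola1 (3.54), the clamp loader gene Rfc3 (3.54), the helicase genes Mcm5 (3.12) and Mcm2 (2.22), the licensing factor gene Cdc6 (2.98) and the sliding clamp gene Pcna (2.24) were also called. These calls remained without any single array. Members that were not called included Ccne1, with a difference of -0.79.

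E2F factors bind short sites rich in G and C after a run of T, and stretches upstream of 6 called replication genes are shown because they hold such a sequence. The promoters (RefSeq, GRCm38.p6) were searched on both strands for TTTGGCGC, TTTGCCGC, TTTCGCGC and TTTCCCGC and for the E-box CACGTG, which reads the same on both strands. None of these contains another, but matches can overlap, as a pair of E2F matches does in Mcm5. Matches are in capitals, and each stretch is written 5′ to 3′ along its gene and ends at or before the start site. The stretches lie as follows, Orc1 at chr4:108579402-108579453 on the plus strand, Rfc3 at chr5:151651209-151651243 on the minus strand, Pola1 at chrX:93632261-93632318 on the minus strand, Rbl1 at chr2:157204535-157204577 on the minus strand, Mcm5 at chr8:75109335-75109392 on the plus strand, Cdc6 at chr11:98907988-98908045 on the plus strand. The last line is the stretch of the ribosome biogenesis gene Nop2 (chr6:125131798-125131853, plus strand), whose capitals mark an E-box.
Orc1: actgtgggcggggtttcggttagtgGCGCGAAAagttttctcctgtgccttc
Rfc3: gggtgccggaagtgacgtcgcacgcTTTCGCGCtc
Pola1: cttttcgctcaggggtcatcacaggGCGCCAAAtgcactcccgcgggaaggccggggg
Rbl1: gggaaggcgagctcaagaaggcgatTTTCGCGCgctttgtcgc
Mcm5: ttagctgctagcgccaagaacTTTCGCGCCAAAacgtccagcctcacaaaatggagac
Cdc6: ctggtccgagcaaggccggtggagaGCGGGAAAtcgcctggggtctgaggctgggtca
Nop2: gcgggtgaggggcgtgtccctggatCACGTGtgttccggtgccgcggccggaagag

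An E2F sequence stood between 250 bases before and 50 bases after a start site in 16 of the 35 replication genes with a promoter in the table (45.7%). Of all 8102 tested genes 6596 had a promoter, and 5.12% of these held one. Among the called members it was 15 of 27, and among those not called 1 of 8. Of the mitosis genes described next 9.09% (3 of 33) held one, and of ribosome biogenesis genes, which are treated after the p53 targets, 8.11% (3 of 37). The E-box was present in 6 of the 37 ribosome biogenesis promoters (16.2%), in 8.57% of those of replication genes and in 12.3% of those of all tested genes. A match of letters is a description and not a site of binding.

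Mitosis genes were also higher in C3(1)/Tag, with 28 of 40 called, 0 lower (34 and 0 at an unadjusted p under 0.05), and a median difference of 1.91. Among all genes 15.7% were called higher and 8.05% lower. Levels of this list were 10.22 to 10.99 in C3(1)/Tag and 7.69, 8.25, 9.65 and 9.72 in MMTV-c-Myc 1 to 4, so the pair of MMTV-c-Myc tumors with low replication genes was low here too. Kif23, a motor protein gene of cytokinesis, was 10.41 to 10.89 in C3(1)/Tag and 5.28, 5.83, 8.41 and 8.19 in MMTV-c-Myc (3.77, SE 0.63, adjusted p = 0.0046). The kinesin gene Kif4 (3.52), the cytokinesis gene Anln (3.37) and the topoisomerase gene Top2a (1.99) were called as well. Foxm1, a transcription factor of mitotic genes, was higher by 2.95 (adjusted p = 0.0219), a call that was lost without MMTV-c-Myc 2. All 40 members had a positive difference. With the replicate number as a block, 15 mitosis genes were called higher.

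Genes of homologous recombination and the replication checkpoint showed the same direction, with 14 of 22 called higher, 0 lower (16 and 0 at an unadjusted p under 0.05) and a median of 1.82. The shares of all genes called were 15.7% higher and 8.05% lower. Rad51c, a paralog of the recombinase, was 6.33, 6.19, 6.22, 6.77 and 6.24 in C3(1)/Tag and 3.02, 3.11, 3.14 and 2.87 in MMTV-c-Myc tumors (3.31, SE 0.21, adjusted p = 9.87e-05). Its MMTV-c-Myc values were as narrow as those of C3(1)/Tag, unlike most genes of the list. They lay near the bottom of the scale, as did normal gland (2.94), and GC-RMA pulls weak signals toward it. The narrow spread and small SE may therefore not measure how alike these tumors were. Rad51c also passed the filter on low values through C3(1)/Tag, which let it differ in 1 direction only. Brca1, which acts in repair by recombination, was 10.26 ± 0.40 (SD, n = 5) against 7.06 ± 1.42 (SD, n = 4) (3.20, adjusted p = 0.00613). Rad54l (2.74), the checkpoint kinase gene Chek1 (2.47) and Brca2 (2.04) were called too. The damage kinase genes Atm and Atr were not (-0.07 and -0.12).

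In the G1 list, which holds cyclins, their kinases and the inhibitors and pocket proteins that restrain them, 10 of 25 tested genes were called higher and 0 lower (11 and 0 at an unadjusted p under 0.05). Of all genes 15.7% were called higher and 8.05% lower. Values of the groups did not overlap, with C3(1)/Tag higher, for 9 members of the list and for 14.9% of all genes. The median of the list was 0.69. E2f1, Rbl1 and Ccne2, given below, also belong to the list of replication genes, so the counts of these lists are not separate. The largest differences were those of INK4 inhibitors of the cyclin D kinases. Cdkn2c, which encodes p18, was 10.76, 11.17, 10.82, 10.47 and 10.69 in C3(1)/Tag and 4.32, 6.71, 7.13 and 7.71 in MMTV-c-Myc (4.31, SE 0.60, adjusted p = 0.00235). Cdkn2a, which encodes p16 and p19ARF, was 6.89, 8.58, 9.57, 7.78 and 6.37 against 5.95, 2.13, 4.10 and 2.37 (4.20, SE 0.88, adjusted p = 0.0107). Cdkn2d, which encodes p19INK4d, was 10.05 ± 0.52 (SD, n = 5) against 5.98 ± 1.78 (SD, n = 4) (4.08, SE 0.73, adjusted p = 0.00554). None of the 3 inhibitors overlapped between the groups, though Cdkn2a of MMTV-c-Myc 1 (5.95) came close to the lowest C3(1)/Tag tumor (6.37), and the Cdkn2a call was lost with MMTV-c-Myc 2 and 4 left out together, a choice made after the values were seen. Their levels elsewhere differed. Cdkn2a was near the bottom of the scale in normal gland (2.39) and at 2.11 to 3.87 in the other FVB models, so C3(1)/Tag was the high group among these. Outside them, in models that also differ in strain, Cdkn2a averaged 6.46 in p53-/- transplant and 4.95 in BRCA1-/-p53+/- tumors. Cdkn2c was 10.18 in normal gland and 8.57 to 9.37 in the other FVB models, so MMTV-c-Myc (6.47) was the low group among these. Cdkn2d was 6.99 in normal gland and 7.37 to 7.94 in the other FVB models, between the groups compared.

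**Figure D2:**
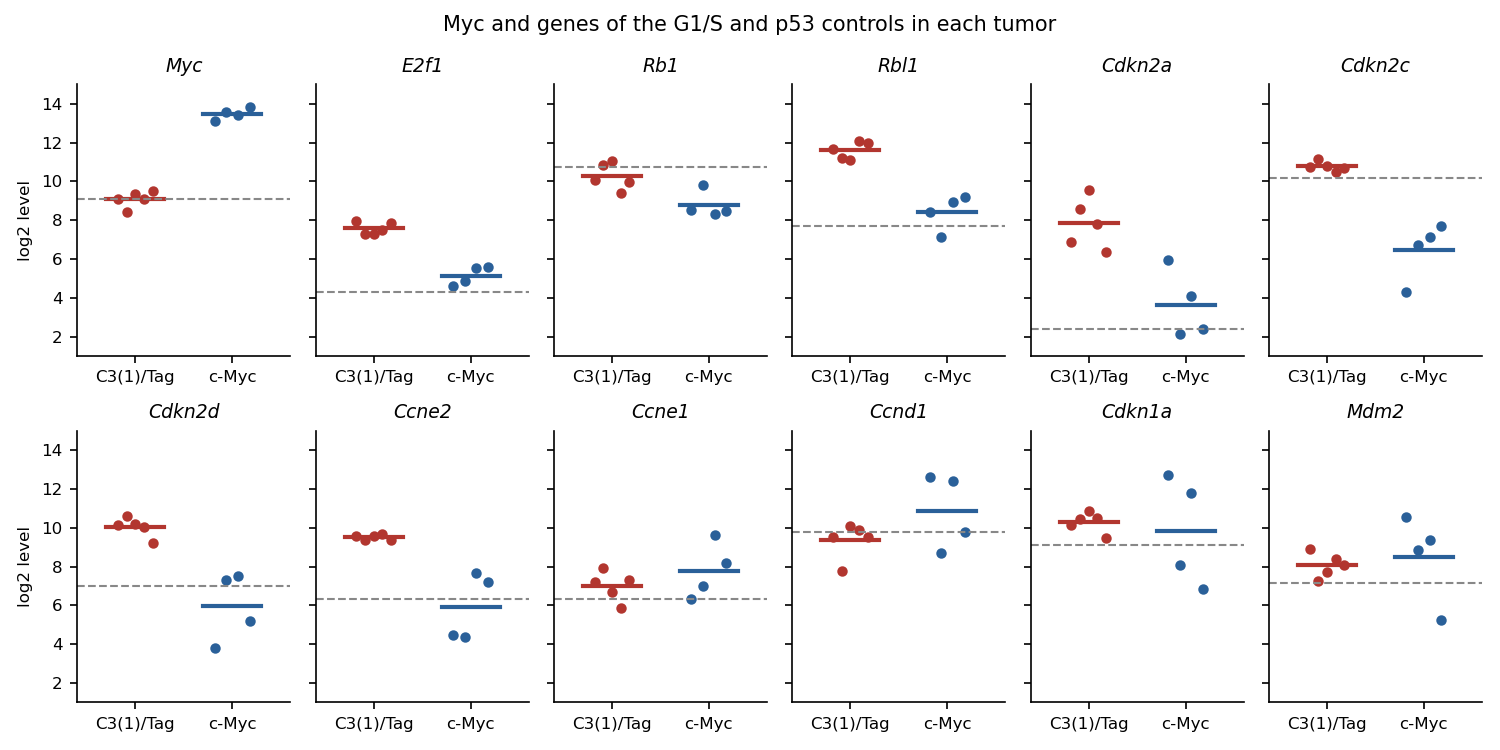
Log2 level (y axis, the same in all panels) of Myc and of 11 genes of the G1/S and p53 controls in the 5 C3(1)/Tag (red) and 4 MMTV-c-Myc (blue) tumors, with 1 point per array, the group mean as a bar and the mean of normal gland as a dashed line. Cdkn2a, Cdkn2c, Cdkn2d, Ccne2, E2f1 and Rbl1 do not overlap between the groups, while Ccnd1, Cdkn1a and Mdm2 do and spread most in MMTV-c-Myc.

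E2f1, itself an E2F target, was 7.97, 7.27, 7.31, 7.48 and 7.87 in C3(1)/Tag and 4.59, 4.85, 5.53 and 5.56 in MMTV-c-Myc tumors (2.45, SE 0.29, adjusted p = 0.0013). The other FVB models lay between 3.99 and 5.10. Rbl1, which encodes the pocket protein p107, was 11.10 to 12.10 against 7.15 to 9.20 (3.19, SE 0.43, adjusted p = 0.0021). Its relative Rb1 was 10.07, 10.87, 11.07, 9.40 and 9.99 against 8.55, 9.79, 8.34 and 8.46, with overlap (1.496, SE 0.43, adjusted p = 0.0333). The Rb1 call was lost with arrays centred or quantile normalized and without any 1 of C3(1)/Tag 1, 2 or 3 or MMTV-c-Myc 1, 3 or 4. The cyclin genes did not move together. Ccne2 was higher by 3.59 (SE 0.68, adjusted p = 0.00702) and Cdk2, the kinase it binds, by 1.72 (adjusted p = 0.0154). Ccne1 (-0.79, SE 0.66, adjusted p = 0.405) and Cdk4 (-0.54, adjusted p = 0.256) were not called. Ccnd1, the cyclin D1 gene, was 9.54, 7.78, 10.10, 9.92 and 9.55 in C3(1)/Tag and 12.62, 8.72, 12.43 and 9.78 in MMTV-c-Myc (-1.51, SE 0.85, adjusted p = 0.216). Its other probe sets differed by -2.53 (adjusted p = 0.0594) and -3.15 (adjusted p = 0.0269, both adjusted over all probe sets kept), so the call of Ccnd1 depended on the probe set. Ccnd2 differed by -1.76 (SE 1.37, adjusted p = 0.369). MMTV-c-Myc 1 and 3 were the high tumors for both D cyclins.

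With all arrays, targets of p53 were divided. Of 29 tested members 4 were called lower in C3(1)/Tag and 2 higher, against 8.05% and 15.7% of all genes. The median was -0.10. The 2 higher, Sertad1 (1.74, adjusted p = 0.0342) and Ddb2 (0.85, adjusted p = 0.0459), both lost the call without any 1 of C3(1)/Tag 1 to 4, MMTV-c-Myc 2 or MMTV-c-Myc 4, and Ddb2 also without C3(1)/Tag 5 or MMTV-c-Myc 3. Aen, a nuclease gene of apoptosis, was 6.76, 6.05, 7.11, 7.17 and 7.28 in C3(1)/Tag and 9.27, 9.63, 10.45 and 8.30 in MMTV-c-Myc (-2.54, SE 0.44, adjusted p = 0.00501). Its second probe set differed by -0.91 and was not called. Ddit4, an inhibitor of mTOR signalling (-2.02, adjusted p = 0.00297), and Bbc3, which encodes the death protein PUMA (-1.65, adjusted p = 0.0084), were also lower without overlap. The fourth was Psrc1 (-1.77, adjusted p = 0.0423), which kept its call without C3(1)/Tag 5 or MMTV-c-Myc 2 and lost it without any other single array. The best known targets were not called. Cdkn1a, which encodes the inhibitor p21, was 10.17, 10.45, 10.89, 10.49 and 9.47 in C3(1)/Tag and 12.71, 8.07, 11.81 and 6.83 in MMTV-c-Myc (0.44, SE 1.11, adjusted p = 0.791), and the other of its 2 probe sets differed by -1.52. Mdm2, which encodes the ligase that degrades p53, was 8.08 ± 0.62 (SD, n = 5) against 10.56, 8.88, 9.39 and 5.24 (-0.43, SE 0.92, adjusted p = 0.751). MMTV-c-Myc 1 and 3 stood above all C3(1)/Tag tumors for both genes, and MMTV-c-Myc 4 stood below all of them. The list level was 8.11 to 8.55 in C3(1)/Tag and 9.31, 7.90, 9.26 and 7.07 in MMTV-c-Myc 1 to 4. The sign of the Cdkn1a difference therefore depended on MMTV-c-Myc 2 and 4, being -0.16 without MMTV-c-Myc 2 and -0.57 without MMTV-c-Myc 4. With both left out together, a choice made after the values were seen, 13 members of the list were called lower and 0 higher.

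Ribosome biogenesis genes were lower in C3(1)/Tag. Of 43 tested members 18 were called lower and 0 higher (28 and 0 at an unadjusted p under 0.05), against 8.05% of all genes called lower, and 17 did not overlap between the groups (8.12% of all genes in this direction). The median was -0.80, which is -1.05 relative to all genes, and 42 members had a negative difference. Levels of the list were 9.32, 8.84, 9.17, 9.38 and 9.53 in C3(1)/Tag and 9.78, 10.02, 10.35 and 10.43 in MMTV-c-Myc. The groups did not overlap, and the distance between them was small. The other FVB models averaged 8.52 to 9.06 and normal gland 8.29, so the C3(1)/Tag mean (9.25) was above theirs. Ppan, needed for the large ribosomal subunit, was 8.36, 8.19, 8.73, 8.40 and 8.56 against 10.15, 10.56, 10.32 and 10.69 (-1.98, SE 0.21, adjusted p = 0.00085). Wdr12 (-1.80), its partner in the same complex Bop1 (-1.40), Rrp1b (-1.68) and the methyltransferase gene Nop2 (-1.29) were called in every fit without a single array. The abundant nucleolar genes Ncl (-0.80, adjusted p = 0.0535) and Npm1 (-0.54, adjusted p = 0.0687) did not overlap but were not called. The count of called genes fell to 10 without C3(1)/Tag 2 and to 11 without C3(1)/Tag 3, MMTV-c-Myc 3 or MMTV-c-Myc 4, and rose to 28 with centred arrays.

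A list of nucleotide, polyamine and metabolic Myc targets had 14 of 37 members called lower, 2 higher and a median of -0.76. The shares of all genes were 8.05% lower and 15.7% higher. The count lower was 6 with the replicate block, 3 with the muscle covariate described below and 8 with MMTV-c-Myc 2 and 4 left out together. Srm, which encodes spermidine synthase, was 9.80, 9.30, 10.18, 9.94 and 10.22 in C3(1)/Tag and 11.38, 12.27, 12.21 and 12.70 in MMTV-c-Myc (-2.25, SE 0.31, adjusted p = 0.00241). The amino acid transporter gene Slc7a5 (-2.17), the mitochondrial import gene Tomm40 (-2.14) and Odc1 (-0.96), which encodes the first enzyme of polyamine synthesis, were lower without overlap. Both members called higher belong to one-carbon and purine synthesis. Mthfd2 was 10.14 ± 0.57 against 8.36 ± 0.94 (1.78, adjusted p = 0.0243) and lost the call without C3(1)/Tag 3 or MMTV-c-Myc 1. Paics differed by 0.76 (adjusted p = 0.0321), a call kept only without MMTV-c-Myc 3 or 4 when arrays were left out singly. Of 27 ribosomal protein genes 1 was called lower, Rpl37 (-1.17), and that call was lost without 6 of the 9 arrays. Further probe sets of Rps9 (-3.07 and -1.31), Rpl27 (-1.11) and Rpl22 (-0.98) were called lower, while those used for these genes were not. The count of this list therefore depended on the probe set. Rpl27a, outside that list, was 6.26 ± 0.79 against 11.15 ± 1.88 (-4.89, adjusted p = 0.00426). Genes of this family have many near-identical copies, so probes may not be specific. Of the other genes of the Myc and Max network, Mycn, a relative of Myc, was 5.04, 7.75, 6.20, 5.17 and 2.45 in C3(1)/Tag and 2.26 to 3.18 in MMTV-c-Myc (2.71, adjusted p = 0.0487). That call held in 1 of the 9 fits without a single array, the one without C3(1)/Tag 5. Mycn passed the filter on low values through C3(1)/Tag, which let it differ in 1 direction only. Max differed by -0.22 and was not called. Mxd3, also of this network, differed by 0.51 and was not called. Its other 2 probe sets were called higher (3.18 and 2.85), so its call depended on the probe set.

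**Figure D3:**
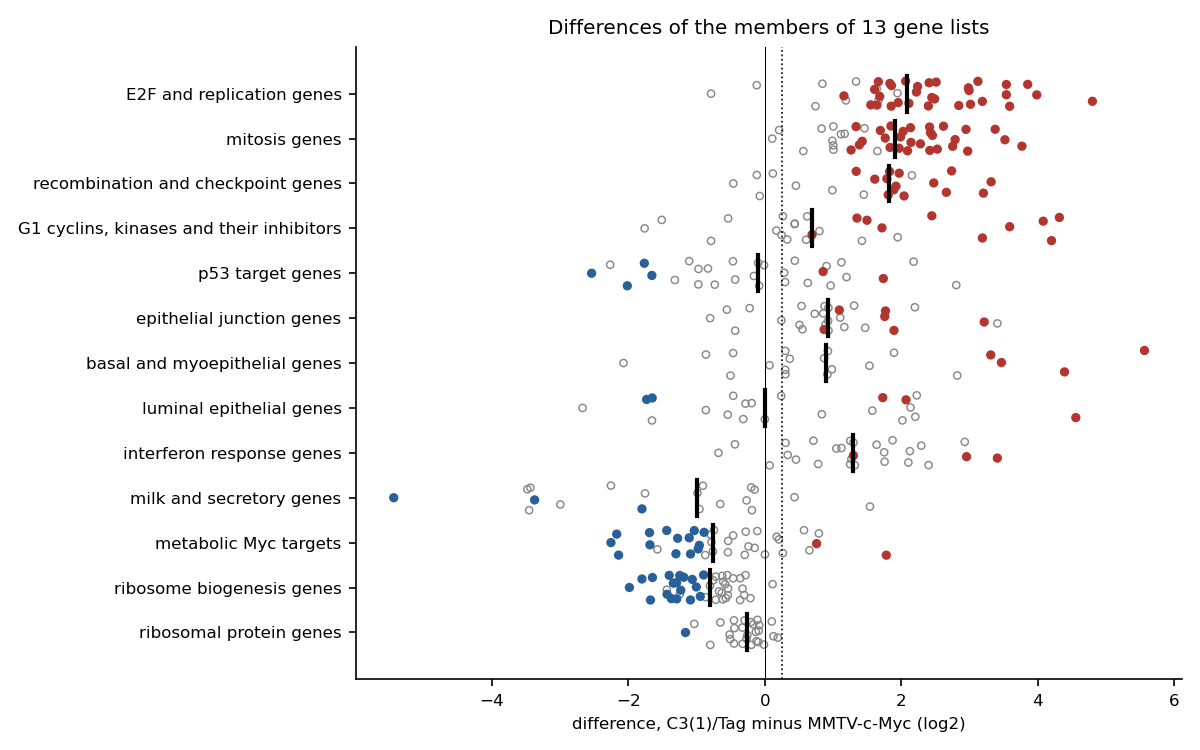
Difference of each tested member of 13 gene lists, C3(1)/Tag minus MMTV-c-Myc in log2 units (x axis). Filled points were called (red higher, blue lower in C3(1)/Tag), open points were not, black bars are list medians and the dotted line is the median of all genes (0.25). The replication, mitosis and recombination lists lie to the right (medians 2.09, 1.91 and 1.82) and the ribosome biogenesis list to the left (-0.80).

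Chromatin regulators were among the called genes. Of 26 tested polycomb, DNA methylation and chromatin genes 7 were higher and 1 lower, against 15.7% and 8.05% of all genes. Asf1b, a histone chaperone, was 10.29 on average against 7.34 (2.95, adjusted p = 0.00362). Uhrf1, which recruits the maintenance methyltransferase, was higher by 2.41, the remodeler gene Hells by 2.51, the polycomb gene Cbx2 by 2.34 and the methyltransferase gene Ezh2 by 1.68. Uhrf1, Hells and Ezh2 also belong to the list of replication genes, so the counts of these lists are not separate. The gene called lower was Satb1, a chromatin organizer, at 6.12, 2.30, 2.65, 3.96 and 2.65 against 8.62, 7.57, 6.52 and 9.23 (-4.45, adjusted p = 0.00668). In the apoptosis list 3 of 26 were called, all higher, a smaller share than the 15.7% of all genes: Casp2 (2.20), Xiap (1.55) and Casp9 (1.14). Of the 3 probe sets of Xiap, 1 pointed the other way (-0.55), and the Casp9 call was lost without C3(1)/Tag 1, 2 or 4 or MMTV-c-Myc 2.

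Lineage markers did not separate the groups as whole lists. Of 20 basal and myoepithelial genes 4 were higher and 0 lower, with a median of 0.89, and of 21 luminal genes 3 were higher and 2 lower, with a median that rounds to 0.00. Of all genes 15.7% were called higher and 8.05% lower, so the counts of both lists lay near the share of all genes. Krt17 was 9.11, 11.75, 10.97, 9.01 and 6.17 in C3(1)/Tag and 3.16, 3.19, 6.55 and 2.46 in MMTV-c-Myc (5.56, SE 1.18, adjusted p = 0.0109). Id4, a regulator expressed in basal cells, was higher by 4.39 (adjusted p = 0.0138). Only the lowest C3(1)/Tag tumor, number 5, and the highest MMTV-c-Myc tumor, number 3, overlapped for both genes. Krt14 was 12.10, 12.87, 13.20, 11.12 and 8.43 against 6.73, 10.89, 7.80 and 6.90 (3.47, SE 1.12, adjusted p = 0.0495), and its call was lost under either scaling and in 7 of the 9 fits without 1 array. Krt5, its usual partner, was 5.20, 7.91, 6.89, 3.55 and 3.03 against 2.94, 9.09, 4.51 and 3.53 (0.30, SE 1.40, adjusted p = 0.891), with a direction that turned under centring and under quantile normalization. Lamb3, a laminin chain of the basement membrane, differed by 3.31 (adjusted p = 0.0225), a call lost without C3(1)/Tag 1. On the luminal side Aldh1a3, an enzyme of luminal progenitors, was 6.55 to 9.48 in C3(1)/Tag and 2.59 to 3.91 in MMTV-c-Myc (4.55, SE 0.57, adjusted p = 0.0017). Aldh1a3 passed the filter on low values through C3(1)/Tag, which let it differ in 1 direction only. Xbp1, a factor of secretory cells, differed by -1.73 (adjusted p = 0.00441) and Stat5a, which transmits the prolactin signal, by -1.65 (adjusted p = 0.017), both lower without overlap. The second probe set of Stat5a differed by -1.04 and was not called. Elf3 (1.73) was called higher, and Kit (2.07, adjusted p = 0.0443) too, though Kit lost the call without any single array but C3(1)/Tag 5.

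Epithelial junction genes had 6 of 27 called higher, 0 lower (12 and 0 at an unadjusted p under 0.05) and a median of 0.93. Of all genes 15.7% were called higher and 8.05% lower. Epcam, an epithelial adhesion molecule, was 14.64, 14.58, 14.27, 14.04 and 13.97 in C3(1)/Tag and 13.09, 12.23, 12.14 and 12.67 in MMTV-c-Myc (1.77, SE 0.27, adjusted p = 0.00337). The desmosome gene Dsc2 was higher by 3.21 (adjusted p = 0.00788). The count was 2 under either scaling, 2 without C3(1)/Tag 1 or 2 and 3 without C3(1)/Tag 4 or MMTV-c-Myc 2. Spint1, a protease inhibitor of epithelium (1.89, adjusted p = 0.0422), kept its call without C3(1)/Tag 3 or MMTV-c-Myc 1 and lost it without any other single array. Among 24 mesenchymal genes Tgfb2 (-2.69, adjusted p = 0.0116) and Tgfb3 (-1.64, adjusted p = 0.00773) were lower and none was higher. Of 24 fibroblast and 20 macrophage genes 0 were called in limma (3 and 1 at an unadjusted p under 0.05), with medians of 0.23 and 0.00.

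Secretory genes were lower in C3(1)/Tag for some members. Of 19 tested milk and secretory genes 3 were called lower and 0 higher (5 and 0 at an unadjusted p under 0.05), against 8.05% and 15.7% of all genes. The median was -0.99. Csn3, which encodes kappa casein, was 10.87, 7.48, 3.73, 12.21 and 9.49 against 13.97, 14.92, 13.80 and 14.08 (-5.44, SE 1.46, adjusted p = 0.0268). Its call was lost without C3(1)/Tag 2, MMTV-c-Myc 2 or MMTV-c-Myc 4. Aqp5, a water channel of secretory epithelium (-3.37, adjusted p = 0.00595), and the lipid droplet gene Plin2 (-1.80, adjusted p = 0.0203) were lower without overlap. Other caseins were uneven among MMTV-c-Myc tumors. Csn2, the beta casein gene, was 2.93, 15.12, 2.23 and 12.90 there and 2.27 to 8.12 in C3(1)/Tag (-3.00, adjusted p = 0.45), so MMTV-c-Myc 2 and 4 were high and 1 and 3 near the bottom of the scale. Csn1s1 was also higher in MMTV-c-Myc 2 and 4 (14.38 and 9.75) than in 1 and 3 (2.44 and 4.93).

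Of 17 salivary gland markers listed, 11 were measured and 4 tested. The tested ones had list levels near the bottom of the scale in C3(1)/Tag and so passed the filter on low values through MMTV-c-Myc, which let them differ in 1 direction only. Of these, 3 were called lower, against 8.05% of all genes. The third, Dcpp1 (-2.59, adjusted p = 0.0433), lost the call without any 1 C3(1)/Tag tumor. Car6, a secreted carbonic anhydrase, was 2.52, 2.56, 2.26, 4.70 and 2.59 in C3(1)/Tag and 10.29, 14.41, 7.12 and 11.22 in MMTV-c-Myc (-7.83, SE 1.22, adjusted p = 0.00352), the largest decrease among called genes without overlap. Bhlha15, which encodes the secretory cell factor MIST1, was 2.67 to 3.03 against 8.81, 10.94, 7.76 and 11.61 (-7.01, SE 0.70, adjusted p = 0.000602). The list level was 2.46 to 3.13 in C3(1)/Tag and 6.30, 10.45, 5.70 and 9.69 in MMTV-c-Myc 1 to 4. It was 12.89 in MMTV-H-Ras, 10.34 in MMTV-PymT and 5.46 in normal gland, so tumors of other models also held these markers. Bhlha15 and Car6 are also expressed by mammary secretory cells, and the part of salivary tissue in these values was not tested.

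**Figure D4:**
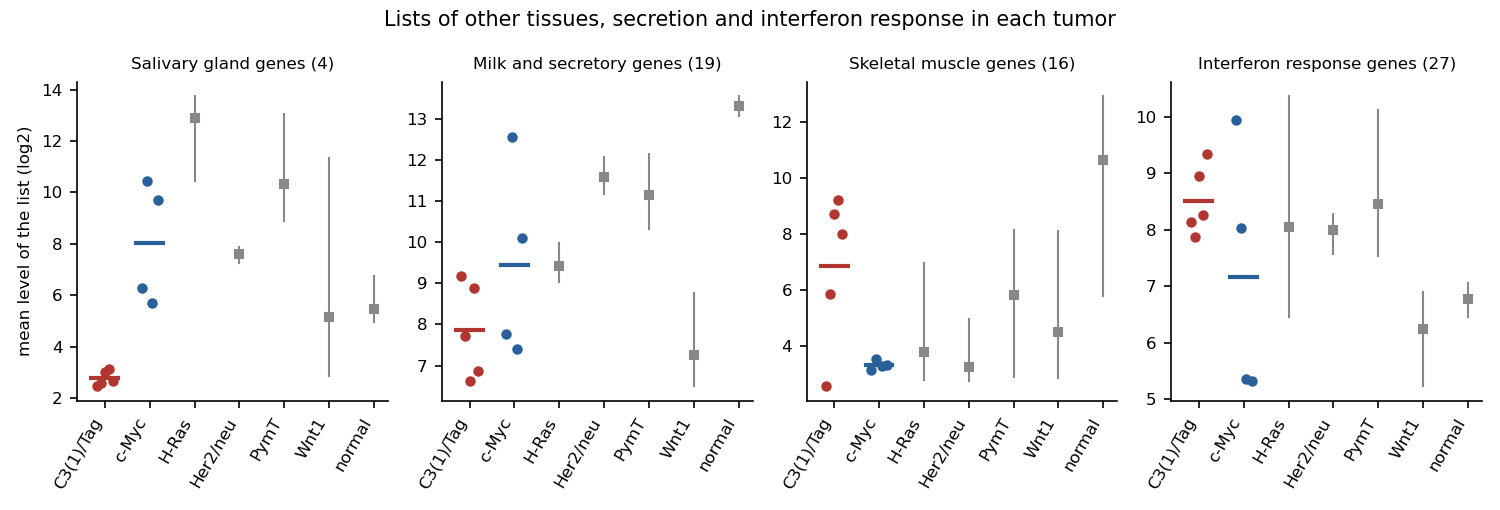
Mean log2 level (y axis) of salivary gland, milk and secretory, skeletal muscle and interferon response genes in C3(1)/Tag (red) and MMTV-c-Myc (blue) tumors, with 1 point per array and bars for group means. Grey squares and lines give means and ranges of the other FVB models and normal gland. The salivary list lies between 2.46 and 3.13 in C3(1)/Tag, and the skeletal muscle list spreads from 2.57 to 9.22 there.

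Skeletal muscle genes were high in 4 of the 5 C3(1)/Tag tumors. The level of the 16 tested genes was 2.57 in C3(1)/Tag 1 and 5.87, 8.72, 9.22 and 8.02 in C3(1)/Tag 2 to 5, against 3.14 to 3.56 in MMTV-c-Myc. Acta1, skeletal muscle actin, was 3.49, 9.86, 12.45, 12.82 and 11.48 against 3.43 to 4.13. Tnnc2 (2.06 to 2.19) and Myh4 (2.55 to 2.61) lay near the bottom of the scale in MMTV-c-Myc. Such members passed the filter on low values through C3(1)/Tag, which let them differ in 1 direction only. In total 8 members were called higher and 0 lower, against 15.7% and 8.05% of all genes. They were led by Acta1 (6.35, adjusted p = 0.0252), Tnnc2 (6.02) and Myh4 (4.78), and the calls of these leading genes were each lost without several of the single arrays. The count was 12 without C3(1)/Tag 1, 3 without C3(1)/Tag 2, 0 without C3(1)/Tag 3, 4 or 5 or MMTV-c-Myc 4, and 1 or 2 without MMTV-c-Myc 1, 2 or 3. With the muscle level as a covariate, added after the values were seen, 8 replication genes and 2 mitosis genes were called higher and 2 ribosome biogenesis genes lower, while the list medians were 2.17, 1.85 and -0.88. The muscle level was higher in 4 of the 5 C3(1)/Tag tumors than in any MMTV-c-Myc tumor, so the covariate overlaps with the group.

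Interferon response genes had 3 of 27 called higher (Ifit2, Cxcl10 and H2-D1), 0 lower (8 and 0 at an unadjusted p under 0.05) and a median of 1.30. The share called was below the 15.7% of all genes. List levels were 7.88 to 9.34 in C3(1)/Tag and 9.94, 8.03, 5.35 and 5.32 in MMTV-c-Myc 1 to 4, so MMTV-c-Myc 3 and 4 were low and MMTV-c-Myc 1 was above all C3(1)/Tag tumors. Cxcl10, a chemokine gene, was 6.50 ± 1.27 (SD, n = 5) against 3.55 ± 0.61 (SD, n = 4) (2.95, adjusted p = 0.0105). The list had 10 calls without MMTV-c-Myc 1 and 1 without C3(1)/Tag 2 or 3 or MMTV-c-Myc 2, 3 or 4. The Ifit2 call (3.41, adjusted p = 0.0253) was lost without any 1 of these 5 arrays, and that of H2-D1 (1.30, adjusted p = 0.0431) without any single array but MMTV-c-Myc 1. Of 15 cholesterol synthesis genes 5 were higher, led by Msmo1 (2.42, adjusted p = 0.0118), Fdps (2.21) and Cyp51 (1.37). With centred arrays 2 were higher and 2 lower, 3 were higher without C3(1)/Tag 1, 3 or 4, and the Fdps call was lost without any 1 of these arrays. Glycolysis and hypoxia genes were divided, with 5 of 28 lower (8 under either scaling) and 2 higher, against 8.05% and 15.7% of all genes. The lower genes were led by the carbonic anhydrase gene Car12 (-3.50, adjusted p = 0.0126). The 2 higher were the growth factor gene Vegfa (2.09, adjusted p = 0.0243) and the oxygen sensor gene Egln1 (1.13, adjusted p = 0.022). Their second probe sets differed by 0.90 (Vegfa) and 0.25 (Egln1) and were not called. Without C3(1)/Tag 1 or 3 or MMTV-c-Myc 1 or 3 there were 3 lower, and the calls of Vegfa and Egln1 were both lost without C3(1)/Tag 1 or MMTV-c-Myc 2, with Vegfa also lost without MMTV-c-Myc 4 and Egln1 without C3(1)/Tag 2.

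Of the genes with the largest increases among called genes without overlap, several lay near the bottom of the scale in MMTV-c-Myc tumors (Arc, Lhx2 and Batf3 in all 4), while Emb reached 11.22 there. Snorc, a cartilage proteoglycan gene, was 10.64, 12.66, 10.36, 10.44 and 10.43 in C3(1)/Tag and 3.02, 2.87, 7.44 and 2.91 in MMTV-c-Myc (6.85, SE 0.96, adjusted p = 0.00248). Ly6d, a surface marker, was 10.87 to 11.73 against 2.29 to 6.76 (6.37, adjusted p = 0.00191). The activity-regulated gene Arc (5.96), the LIM homeobox gene Lhx2 (5.42), the adhesion gene Lypd3 (5.70), the protease gene Asprv1 (5.34) and the developmental factor gene Sox11 (5.23) followed. Batf3, a transcription factor known from dendritic cells, was 6.82, 7.78, 6.75, 7.38 and 7.17 against 2.01 to 2.36 (5.07, SE 0.26, adjusted p = 4.02e-05), with no overlap. Its values lay at the bottom of the scale in MMTV-c-Myc, so their small spread and the small SE may not measure how alike these tumors were. Batf3, Arc, Lhx2 and Lypd3 were under 4 in every MMTV-c-Myc tumor. They passed the filter on low values through C3(1)/Tag, which let them differ in 1 direction only. Batf3 was at 2.03 to 2.15 in the other FVB models and at 2.05 in normal gland. Emb (5.40) and Clip4 (5.31) completed the 10, and the Emb call was lost without any 1 of 7 arrays (each C3(1)/Tag array and MMTV-c-Myc 2 and 4).

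Among the largest decreases, apart from Car6, Bhlha15, Csn3 and Rpl27a, Ccnb1ip1, a gene of meiotic recombination, was 2.18 to 3.25 in C3(1)/Tag and 7.83, 8.53, 8.47 and 10.16 in MMTV-c-Myc (-6.26, SE 0.45, adjusted p = 0.000206). It was 2.29 in normal gland and 2.25 to 4.64 in the other FVB models, so MMTV-c-Myc was the high group among these. Utf1, a gene of embryonic stem cells, was 2.05 to 2.19 in C3(1)/Tag and 11.74, 4.18, 3.69 and 9.68 in MMTV-c-Myc (-5.22, adjusted p = 0.0351), a call lost without any 1 C3(1)/Tag tumor. The kinesin gene Kif21a (-4.89), Ldb3 (-5.19), Fam174b (-5.17) and 2010204K13Rik (-5.29) made up the rest. Ccnb1ip1, Utf1, Kif21a, Fam174b and 2010204K13Rik were under 4 in every C3(1)/Tag tumor. They passed the filter on low values through MMTV-c-Myc, which let them differ in 1 direction only.

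Genes that lie next to each other on chromosome 6 were high in 3 of the C3(1)/Tag tumors. This stretch, from Rassf8 to Caprin2 in the order of RefSeq, was picked after the values were seen, as the run of 15 consecutive tested genes with the highest median difference (3.15), so it carries no test. All 15 differences were positive and 9 were called, against 15.7% of all genes called higher. The median level over the 15 genes was 12.18, 8.995, 8.08, 12.18 and 12.95 in C3(1)/Tag 1 to 5 and 7.08, 5.92, 8.54 and 7.11 in MMTV-c-Myc 1 to 4. C3(1)/Tag 1, 4 and 5 exceeded every MMTV-c-Myc tumor and the means of all 4 other FVB models in all 15 genes, whereas C3(1)/Tag 2 and 3 exceeded every MMTV-c-Myc tumor in 10 and 4. Med21, a Mediator subunit gene, was 13.22, 9.55, 9.24, 13.85 and 14.06 against 7.997, 7.48, 9.52 and 7.87. DNA copy number was not analysed here.

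**Figure D5:**
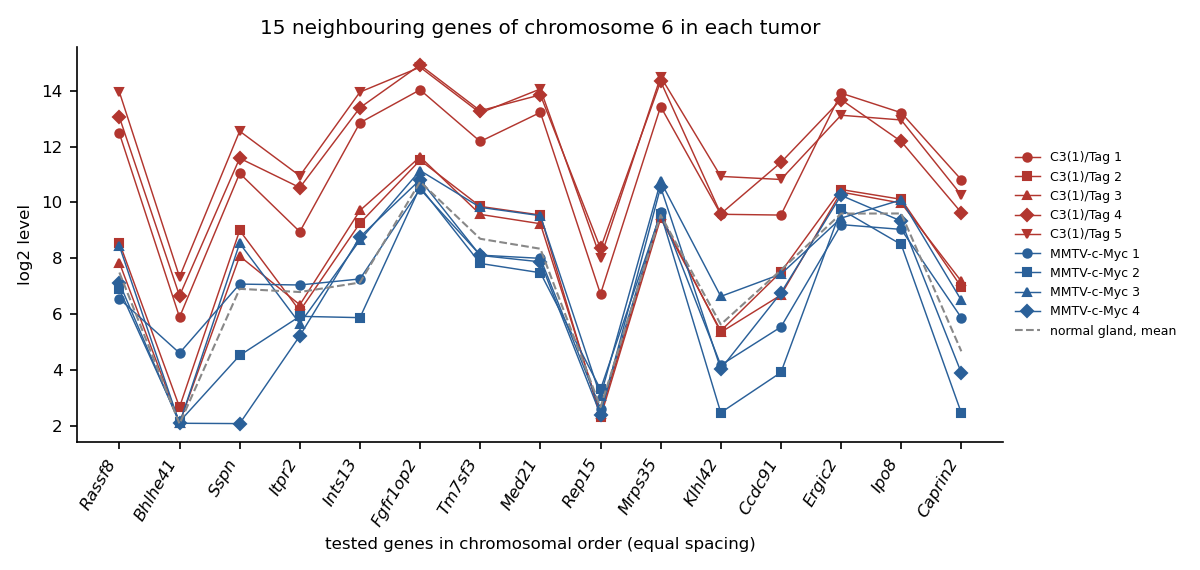
Log2 level (y axis) of 15 neighbouring tested genes of chromosome 6, in chromosomal order at equal spacing (x axis), in each C3(1)/Tag (red) and MMTV-c-Myc (blue) tumor, with the mean of normal gland as a dashed line. The lines of C3(1)/Tag 1, 4 and 5 run above all others at every gene.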

How the data were processed

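mRNA was measured in 9 tumors with 1 array each (5 C3(1)/Tag and 4 MMTV-c-Myc), grouped by sample title. The deposited table holds log2 values that the authors made with GCRMA in Partek after scanning with GCOS, leaving out probe sets that MAS5 called present or marginal in too few samples, and versions are not given in the sources used here. It has 18586 probe sets on 46 arrays. GC-RMA normalizes between arrays and pulls weak signals toward the bottom of the scale. Array data give no read depth, and the number of arrays limits precision.

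Of the probe sets, 16962 had 1 gene symbol, 569 several and 1055 none in the platform annotation. Those with 1 gene and a log2 value over 4 in at least 3 of the 9 arrays were kept (12791), and the 3094 genes with several were each represented by the brightest on average across the series. A gene that passed only through its high group could only differ in that direction. Differences were fitted with limma 3.58.1 in R (lmFit and eBayes, two-sided, Benjamini-Hochberg over 8102 genes), which was tested on simulated data. Lists are described by counts and medians with no set test. Named were 14 genes taken whatever their values, the 10 called genes without overlap and with the largest difference per direction and up to 3 called members per list and direction, and further list members were named after their values were seen. The members and lists were chosen with earlier results of these data known. Array numbers were not taken to pair the samples. Alternatives were all arrays in 1 fit, other filters, scalings, probe set rules and variance priors, the replicate block, and each array left out, and 2 more were added after the data were seen (the muscle level as a covariate, and MMTV-c-Myc 2 and 4 left out together). No column of per-sample values was left unused. Some items are not reported here.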

Additional observations from a re-analysis of the deposited data

Results flagged for a closer look

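In 22 of 276 groups of values examined (the arrays of 1 model, for a named gene or a list level), a single tumor lay far from the others by Dixon's test, which chance does in about 1 in 20 groups. No explanation was tested.

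Among cell cycle and related genes, Ccnd1 was 7.78 in C3(1)/Tag 2 with the other C3(1)/Tag tumors at 9.54 to 10.10, and Rb1 was 9.79 in MMTV-c-Myc 2 with the others of its group at 8.34 to 8.55. Rad51c was 6.77 in C3(1)/Tag 4 (others up to 6.33), Psrc1 was 10.12 in C3(1)/Tag 5 (others up to 8.87), and Asf1b was 5.69 in MMTV-c-Myc 1 (others from 7.74). Of lineage and signalling genes, Id4 was 8.21 in C3(1)/Tag 5 (others from 10.31) and Stat5a was 6.10 in the same tumor (others from 7.25). Egfl7 was 6.38 and Fdps 8.83 in C3(1)/Tag 2, both the lowest of the group. Vegfa was 9.62 and Egln1 9.61 in MMTV-c-Myc 1, both the highest (others up to 7.68 and 8.78).

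Of the genes with the largest differences, Car6 was 4.70 and Fam174b 3.997 in C3(1)/Tag 4, and Ccnb1ip1 was 3.25 in C3(1)/Tag 5, each the highest of its group. Fam174b was 4.601 in MMTV-c-Myc 3 with the others at 8.93 to 9.62. Snorc was 12.66 in C3(1)/Tag 2 (others up to 10.64) and 7.44 in MMTV-c-Myc 3 (others up to 3.02). Arc was 2.21 in MMTV-c-Myc 4, Lhx2 2.46 in MMTV-c-Myc 2 and Batf3 2.36 in MMTV-c-Myc 1, all near the bottom of the scale where such gaps are small. The level of the B and plasma cell list, which rests on 2 genes, was 6.51 in C3(1)/Tag 1 (others up to 5.56), and that of the ERK feedback and EGF family list was 9.51 in C3(1)/Tag 4 (others up to 8.77).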

How the results depend on the processing

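The counts of called genes given here are for the comparison of all 9 arrays with 1 choice changed at a time. The split moved most with scaling: 713 genes were higher and 922 lower with quantile normalization (43.6% of the called genes higher, against 66.7%), and 692 and 885 with arrays centred on their medians (43.9%), where 28 ribosome biogenesis genes were lower. The scalings set the median of all genes to -0.03 and -0.05, against 0.25. Array numbers were not taken to pair the samples, since the deviations of same-numbered arrays correlated at -0.048, 0.108, 0.024 and 0.069, although 3 of 4 MMTV-c-Myc arrays were closest to the C3(1)/Tag array of their number, a hint from the data and not the design. With the replicate block, in which C3(1)/Tag 5 has no partner and adds nothing to the difference, the calls were 577 higher and 299 lower, with 15 mitosis genes higher, 7 ribosome biogenesis genes lower and 6 metabolic Myc targets lower. With the skeletal muscle level as a covariate, chosen after seeing the data, the calls were 163 higher and 107 lower (60.4% higher), with 8 replication, 2 mitosis and 2 recombination genes higher and 2 ribosome biogenesis genes and 3 metabolic Myc targets lower. With MMTV-c-Myc 2 and 4 left out, also chosen after seeing the data, 661 genes were higher (55.9% of the called genes), and 10 ribosome biogenesis genes and 8 metabolic Myc targets were lower. The p53 targets called were then 13 lower and 0 higher, against 4 and 2 with all arrays. The sign then turned for 3 genes not called with all arrays, as Cdkn1a differed by -1.97, Csn2 by 2.72 and Csn1s1 by 0.71. Without single arrays the calls ranged from 743 to 1283 higher and from 380 to 523 lower, replication genes from 29 to 36, mitosis genes from 19 to 31, recombination genes from 11 to 16, ribosome biogenesis genes from 10 to 22 and metabolic Myc targets from 10 to 16. Of 116 named genes that were called, 83 were called without each single array and 33 lost the call without 1 or more. The call was lost for 32 of them with the replicate block, 84 with the muscle covariate, 36 without MMTV-c-Myc 2 and 4 (Cdkn2a, Krt17, Id4, Slc7a5, Stat5a, Tgfb3, Msmo1, Car12 and Elf3 among them) and 11 under either scaling. Under other settings the sign turned for more genes that were not called with all arrays, Krt5 (-0.24 with quantile normalization, -0.0037 centred, -0.39 to 1.65 without single arrays), Krt18 (-0.062 centred, -0.0096 to 0.64), Cdkn1a (-0.54 with probe sets averaged, -0.57 to 1.39), Mdm2 (-1.53 to 0.25) and Krt8 (-0.52 to 0.037). The causes of these changes were not tested. With 5 against 4 arrays, moderate differences in MMTV-c-Myc, where tumors varied more, had wide errors. Signals near the bottom of the scale have no reliable order, and detection calls were not used here.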

Other observations

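Lists not described above held few called genes. Of all genes 15.7% were called higher and 8.05% lower. Of 14 endothelial genes 2 were lower in C3(1)/Tag, Egfl7 (-1.47, adjusted p = 0.0107) and Apln (-1.40, adjusted p = 0.0294), and the Apln call was lost without C3(1)/Tag 1, 3, 4 or 5. Of 7 adipocyte genes 1 was lower, Cebpa, a factor of fat cell and secretory differentiation (-1.82, adjusted p = 0.00751). Of 3 tested T cell genes the chemokine gene Ccl5 was higher (2.89, adjusted p = 0.0264), a call lost without C3(1)/Tag 1, 4 or 5 or MMTV-c-Myc 3. In limma 0 of 7 neutrophil genes, 0 of 2 B and plasma cell genes, 0 of 4 keratinised epithelium genes and 0 of 2 neuroendocrine genes were called, with 1, 0, 2 and 0 at an unadjusted p under 0.05, and 0 erythroid genes were tested.

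Of 13 Wnt and beta-catenin targets 1 was lower, the ligase gene Rnf43, which removes Wnt receptors (-1.99, adjusted p = 0.0222, lost without C3(1)/Tag 3 or MMTV-c-Myc 2), and 1 higher, the receptor gene Fzd7 (1.05, adjusted p = 0.0494, kept without C3(1)/Tag 3 or MMTV-c-Myc 3 and lost without any other array). Of 19 ERK feedback and EGF family genes 1 was lower, the factor gene Etv4 (-2.29, adjusted p = 0.0317), a call lost without C3(1)/Tag 1, 2 or 3 or MMTV-c-Myc 1 or 3. Among 11 imprinted genes the adaptor gene Grb10 was 6.77 to 8.98 in C3(1)/Tag and 3.29, 6.04, 6.13 and 2.75 in MMTV-c-Myc (3.30, adjusted p = 0.0163), and Impact was lower (-1.72, adjusted p = 0.0055). Aldoc, the third glycolysis gene by size of decrease, differed by -1.95 (adjusted p = 0.0471) and kept its call without MMTV-c-Myc 4 only.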
